A study of Pyrus pyrifolia with 6 samples.

Results

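Sorbitol dehydrogenase transcripts were examined in the pulp of Akibae pear (Pyrus pyrifolia) from fruit given a boron application and from control fruit. The genes of interest were LOC103933316 and LOC103960512, both described as sorbitol dehydrogenase-like, and they were found by gene name among the 4291 genes with library values, so 2 of 4291 genes were members. The trees stood in an orchard, and each treatment had 3 mRNA libraries, numbered 1 to 3. The labels name neither the dose nor the form of boron, neither the stage of the fruit nor what the control fruit received. The 4291 genes are those the authors had already called different between the treatments on these same libraries, so passing a test again is not independent evidence of a difference. The labels do not say that libraries came from separate fruits or trees, and p-values therefore measure only the spread between these libraries, which may be technical.

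In pear and other fruit trees of the rose family, sorbitol is a main form in which carbon travels from leaf to fruit. NADP-dependent sorbitol-6-phosphate dehydrogenase acts in its synthesis, polyol transporters carry it across membranes, and NAD-dependent sorbitol dehydrogenase oxidises it to fructose in fruit and other sink tissues. Fructokinase and hexokinase then phosphorylate the fructose, which enters glycolysis or sucrose synthesis. Sorbitol dehydrogenase belongs to the zinc-dependent family of medium-chain alcohol dehydrogenases and is encoded by several genes in apple and pear.

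Both sorbitol dehydrogenase-like genes were higher in boron-treated pulp under the authors' scaling, the more abundant one moderately and the other strongly. LOC103960512 rose 2.53-fold and LOC103933316 rose 10.2-fold. Each of their scaffolds also held a listed gene with the same description, here called the member's neighbour, though unlisted genes may lie between. These neighbours went different ways, LOC103933312 being higher and LOC103960507 lower in boron fruit. Both neighbours were noticed after their values were seen. The rise of LOC103960512 was lost under a pair of other library scalings, whereas the other 3 genes passed in the same direction under each of the 4 scalings compared. Every scaling other than the authors' was built only on genes selected for differing. Neither the scalings that lost this rise nor quantile normalization, which kept it, can therefore decide whether the gene rose.

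LOC103960512 spans 185743 to 187411 on the plus strand of scaffold NW_008988232.1, with a gene length of 1536 bases in the deposited table, and carries an ADH_N domain (the N-terminal domain of alcohol dehydrogenases) in the table's family column. Scaffold positions are as the authors gave them, and no genome build is named in the sources used here. Its values are normalized counts, that is, gene counts after division by the authors' size factor of each library, and were 4509, 4473 and 4441 in boron libraries 1 to 3. In control libraries 1 to 3 its normalized counts were 1773, 1749 and 1786. All boron libraries were high and all control libraries low, with the lowest boron value 2.49 times the highest control value. The means were 4474 ± 34.0 normalized counts in boron and 1770 ± 18.7 in control fruit (SD, n = 3 each). The log2 fold change of boron over control was 1.34 ± 0.06 (SE), with an adjusted p of 6.56e-09 by limma on log2(normalized count + 1), with Benjamini-Hochberg adjustment over all 4291 genes.

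LOC103933316 spans 127539 to 129235 on the minus strand of scaffold NW_008988633.1, has a gene length of 1486 bases and also carries the ADH_N domain. It had 242, 233 and 229 normalized counts in boron libraries 1 to 3. It had 23.9, 26.0 and 19.4 normalized counts in control libraries 1 to 3. The groups lay far apart, the lowest boron value being 8.79 times the highest control value. The means were 235 ± 6.92 in boron and 23.1 ± 3.36 in control fruit (SD, n = 3 each). Its log2 fold change was 3.30 ± 0.20 (limma, adjusted p = 8.80e-08). Both members thus passed the test with non-overlapping groups. The same held for most listed genes, since 99.2% of them passed the test, 73.0% passed as higher and 26.2% as lower in boron fruit, and 97.7% had non-overlapping groups, so the members' calls are near the background of the table. In bulk pulp, more cells that contain a transcript and more transcript per cell cannot be told apart.

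**Figure D1:**
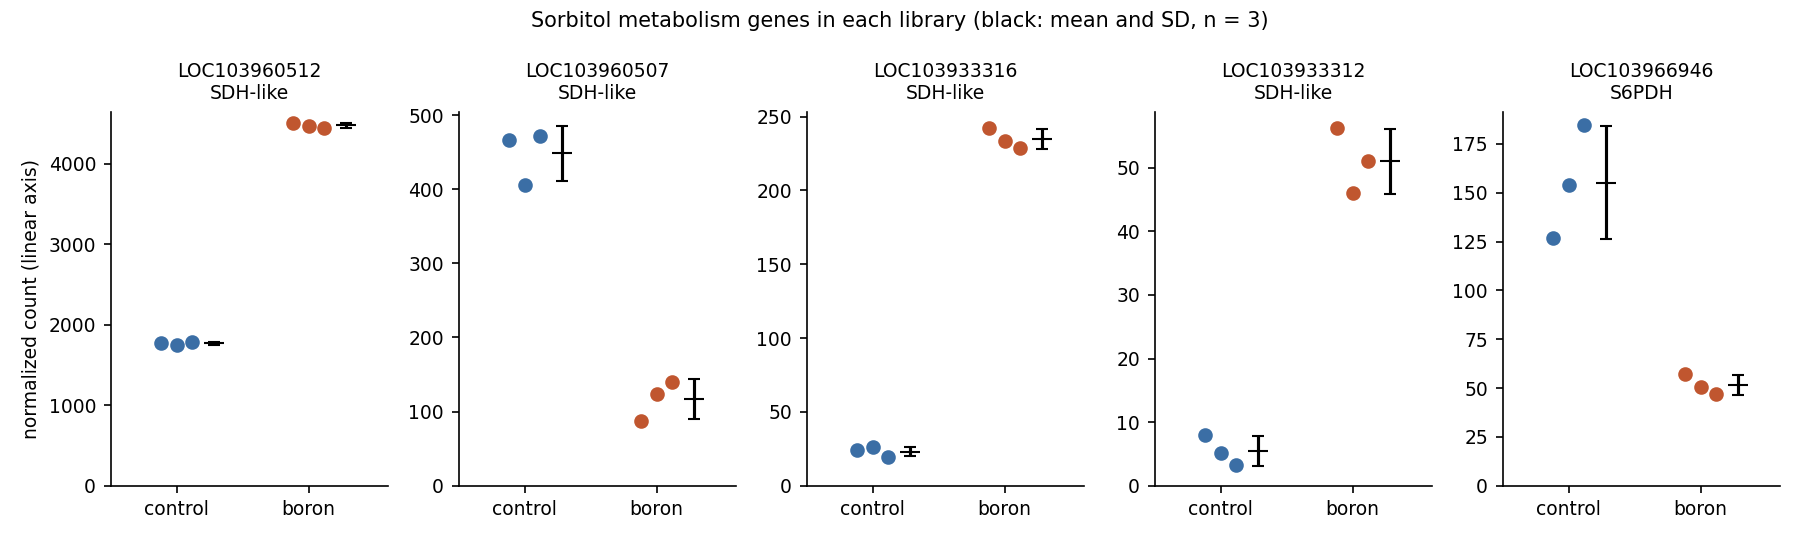
Normalized counts of the 5 listed sorbitol genes (vertical axes, linear and starting at 0, a separate range per gene) in the 3 control and 3 boron libraries, with points for libraries and black marks for the mean and SD. SDH-like marks the sorbitol dehydrogenase-like genes and S6PDH the sorbitol-6-phosphate dehydrogenase; 3 genes are higher in every boron library and 2 are lower in every boron library.

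The sizes of these changes fell on either side of the middle of the table. The median log2 fold change was 1.62 over all 4291 listed genes and 2.15 over the 3131 genes that passed as higher. LOC103933316 changed more than this median, with 16.7% of the passing rises being larger. LOC103960512 changed less, and 81.4% of the passing rises were larger than its own. In the authors' deposited table the log2 fold changes were 3.34 for LOC103933316 (adjusted p = 4.75e-35) and 1.34 for LOC103960512 (adjusted p = 1.16e-98). The authors' signal-to-noise scores, deposited for 42194 genes, were 4.10 and 2.17, which ranked 212 and 1749 from the highest. For all 4291 listed genes the score had the sign of the authors' log2 fold change, and it is not separate evidence of a change.

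The members differed more in level than in direction. Per kilobase of gene length, LOC103960512 had 2913 ± 22.1 normalized counts in boron and 1152 ± 12.2 in control fruit. LOC103933316 had 158 ± 4.65 normalized counts per kilobase in boron and 15.6 ± 2.26 in control fruit. LOC103960512 was thus the more abundant in every library, but its lead shrank from 75.2 ± 12.3 times in control libraries to 18.4 ± 0.401 times in boron libraries (ratio of levels per kilobase, SD, n = 3 each). In rank by level per kilobase among the listed genes, LOC103960512 stood at 204 in control and 72 in boron fruit, and LOC103933316 at 2337 and 1067.

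The ratio of the members within a library does not depend on a factor that scales all genes of that library alike, apart from the pseudocount of 1. The log2 ratio of LOC103933316 to LOC103960512, from normalized counts, was -4.21, -4.25 and -4.27 in boron libraries 1 to 3. It was -6.15, -6.02 and -6.45 in control libraries 1 to 3, without overlap between the groups. The log2 fold change of LOC103933316 was therefore larger by 1.96 ± 0.13 (SE), or 3.89-fold (two-sided exact permutation p = 0.1, the smallest p that 3 against 3 libraries allow, and 0.15 after adjustment over 3 such ratios). Quantile normalization, which alters the ratio within a library, gave a smaller difference of 0.71.

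The call for LOC103960512 depended on the scaling of the libraries. TMM factors, median-of-ratios factors and the quantile normalization were built here only on genes selected for differing. Of these genes, 73.0% passed as higher with the authors' size factors. Neither a loss nor a keeping of the call under these scalings can therefore decide whether the gene rose. With TMM over the listed genes its log2 fold change was -0.10 ± 0.05 (limma, adjusted p = 0.130), and with median-of-ratios size factors over the listed genes it was -0.06 ± 0.06 (adjusted p = 0.401). With quantile normalization it was 1.55 ± 0.06. LOC103933316 passed under all of them, with log2 fold changes of 1.89 ± 0.19, 1.93 ± 0.19 and 2.26 ± 0.19. Over all listed genes, the median log2 fold change moved by -1.40 with TMM, -1.35 with median of ratios and -1.25 with quantile normalization, and 62.3%, 63.0% and 62.2% of the listed genes passed under them. Under TMM 53.6% of the passing genes were higher in boron fruit, against 73.5% with the authors' size factors. LOC103933316 lay above the median of all genes tested with the authors' size factors and with each of these scalings. LOC103960512 lay below it with the authors' size factors, TMM and median of ratios, but above it with quantile normalization (1.55 against 0.37). With the authors' size factors it was also above the median when only genes averaging 100 normalized counts or more were tested (1.34 against 1.21). It was about level with the median at a pseudocount of 5 (1.336 against 1.335). The authors' score over all genes was positive for 54.0% of the 30584 genes with a score other than 0.

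**Figure D2:**
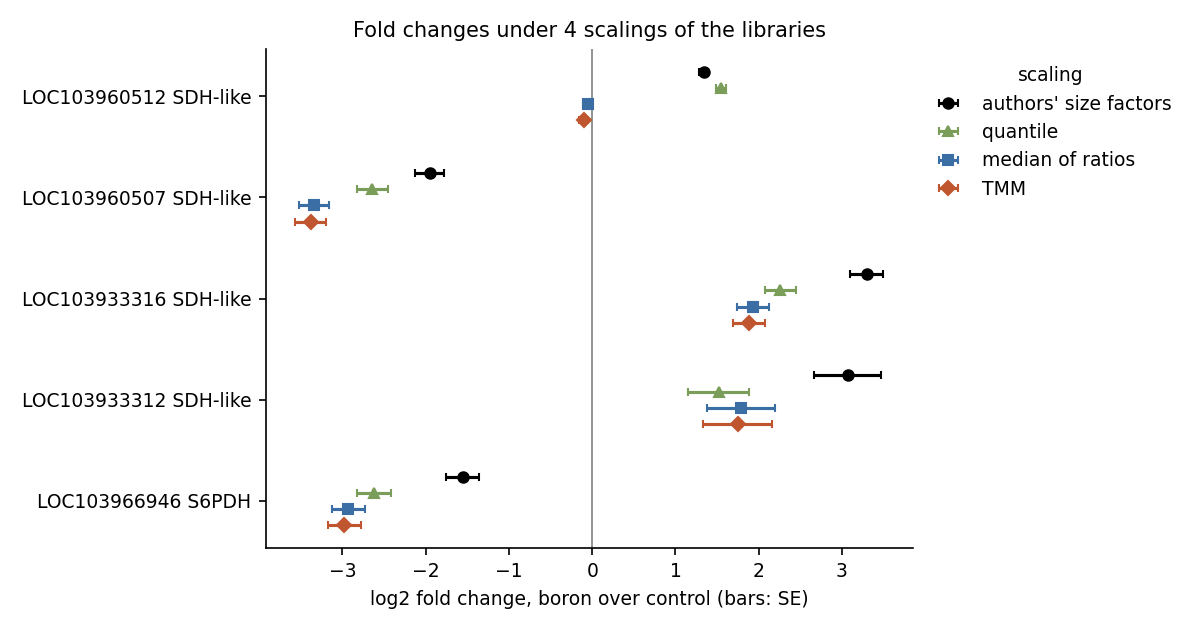
Log2 fold change of boron over control (horizontal axis, bars show the SE from limma) of the 5 listed sorbitol genes under 4 scalings of the libraries. LOC103960512 lies at 1.34 with the authors' size factors and at -0.10 with TMM, while each of the other genes stays on one side of 0.

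The neighbours of the members carried the same description and domain. LOC103960507 lies 21.9 kb from LOC103960512, on the same strand (161846 to 163887). It had 87.2, 124 and 140 normalized counts in boron libraries 1 to 3. In control libraries 1 to 3 it had 467, 406 and 472 normalized counts. Every control library was above every boron library, and the gene fell 3.83-fold, its log2 fold change being -1.95 ± 0.18 (limma, adjusted p = 2.02e-06). The log2 ratio of LOC103960512 to LOC103960507 rose from 1.98 ± 0.11 in control to 5.27 ± 0.36 in boron libraries (SD, n = 3 each). The difference of 3.29 ± 0.22 (SE) had a two-sided exact permutation p of 0.1, or 0.15 adjusted over the 3 ratios, and is independent of library-wide scaling apart from the pseudocount.

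At the other locus the neighbours were higher together. LOC103933312 (119824 to 123786, minus strand) lies 3.75 kb from LOC103933316. It had 56.2, 46.0 and 51.0 normalized counts in boron libraries 1 to 3. It had 7.98, 5.20 and 3.24 in control libraries 1 to 3, and the groups did not overlap. It rose 9.33-fold, its log2 fold change being 3.07 ± 0.40 (limma, adjusted p = 3.58e-05). The log2 fold changes of LOC103933316 and LOC103933312 differed by 0.23 ± 0.25 (SE; two-sided exact permutation p = 0.5), a difference within its error that the few counts in control libraries leave wide. Genes with near-identical copies may share or split reads. How the counting treated such reads, and whether it used strand, is not stated, and the values of the single copies are therefore uncertain.

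**Figure D3:**
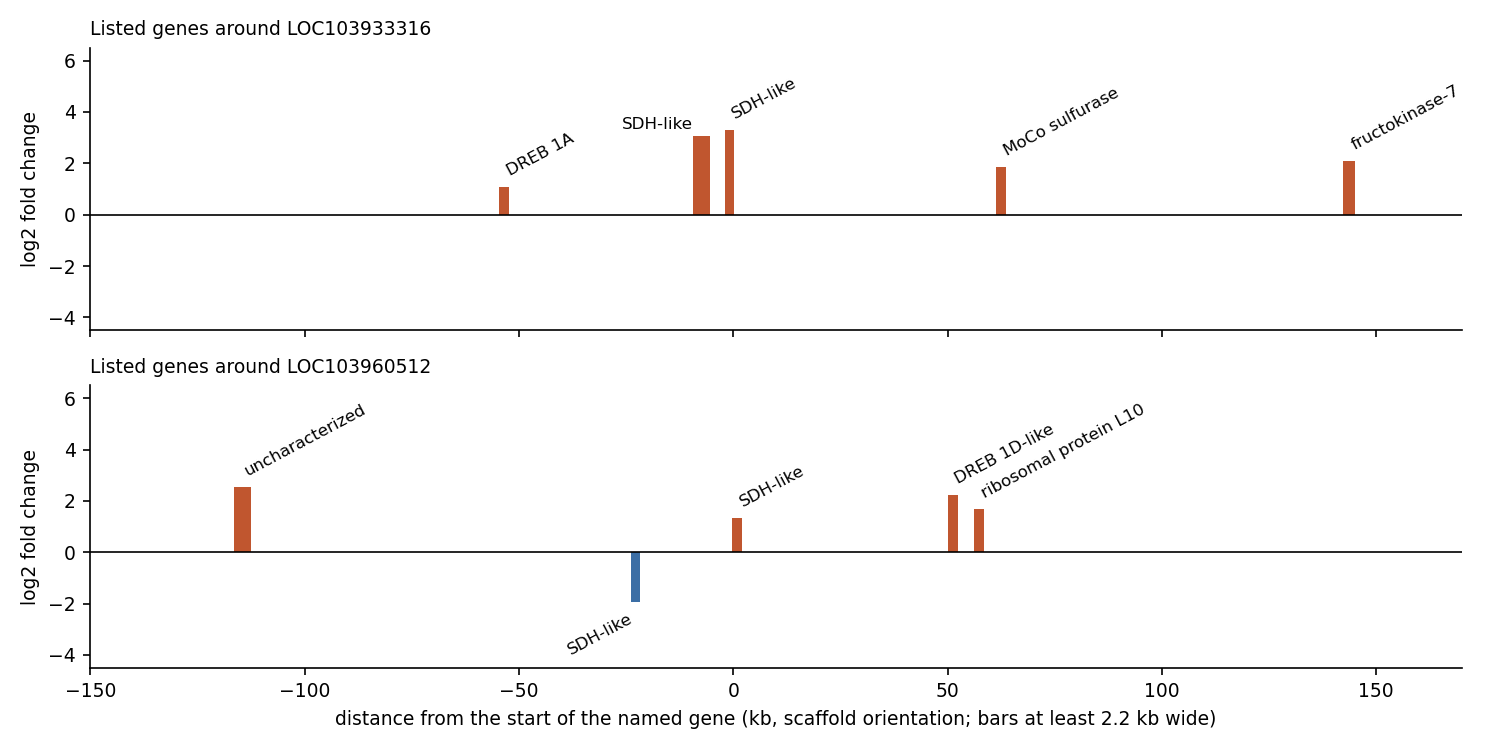
Log2 fold change (vertical axis) of the listed genes within 150 kb of each member, by distance in kb from the member's start (horizontal axis, orientation of the scaffold). Around LOC103933316 all 5 genes are higher in boron fruit, and near LOC103960512 the sorbitol dehydrogenase-like neighbour at 21.9 kb is lower. Of all listed genes, 73.0% passed as higher.

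Other genes of both scaffolds are given by position. Of all listed genes 73.0% passed as higher and 26.2% as lower, and a pattern by region was not tested. All 5 listed genes of the scaffold of LOC103933316 were higher in boron fruit, and 6 of the 9 of the scaffold of LOC103960512 were higher and 3 lower. Among the former was probable fructokinase-7 (LOC103933335), of the enzyme class that phosphorylates fructose, 142 kb away, which rose from 33.1 ± 9.996 to 142 ± 11.6 normalized counts (limma, adjusted p = 1.73e-05). Each locus also held a gene of the dehydration-responsive element-binding protein 1 type, a group of transcription factors of cold and drought responses. LOC103933308 (protein 1A), 51.2 kb from LOC103933316, rose from 60.9 ± 20.9 to 126 ± 11.1. LOC103960521 (protein 1D-like), 49.0 kb from LOC103960512, rose from 23.1 ± 7.82 to 110 ± 21.7. These 3 genes were picked after their values were seen.

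The make-up of the listed sorbitol dehydrogenase-like transcripts differed between the treatments. The 4 genes together had 3183 ± 9.64 normalized counts per kilobase in boron and 1485 ± 35.7 in control fruit, a ratio of 2.14 under the authors' scaling. LOC103960512 gave 91.5% ± 0.419 of this sum in boron and 77.6% ± 1.11 in control libraries. LOC103960507 gave 2.58% ± 0.606 in boron and 21.2% ± 1.24 in control libraries. LOC103933316 gave 4.96% ± 0.131 in boron and 1.05% ± 0.174 in control libraries, so that it was the second most abundant in boron and the third in control fruit. LOC103933312 stayed at the bottom with 0.958% ± 0.0943 and 0.220% ± 0.0945. Further genes for the enzyme that the authors did not call have no library values here and are missing from the sum.

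**Figure D4:**
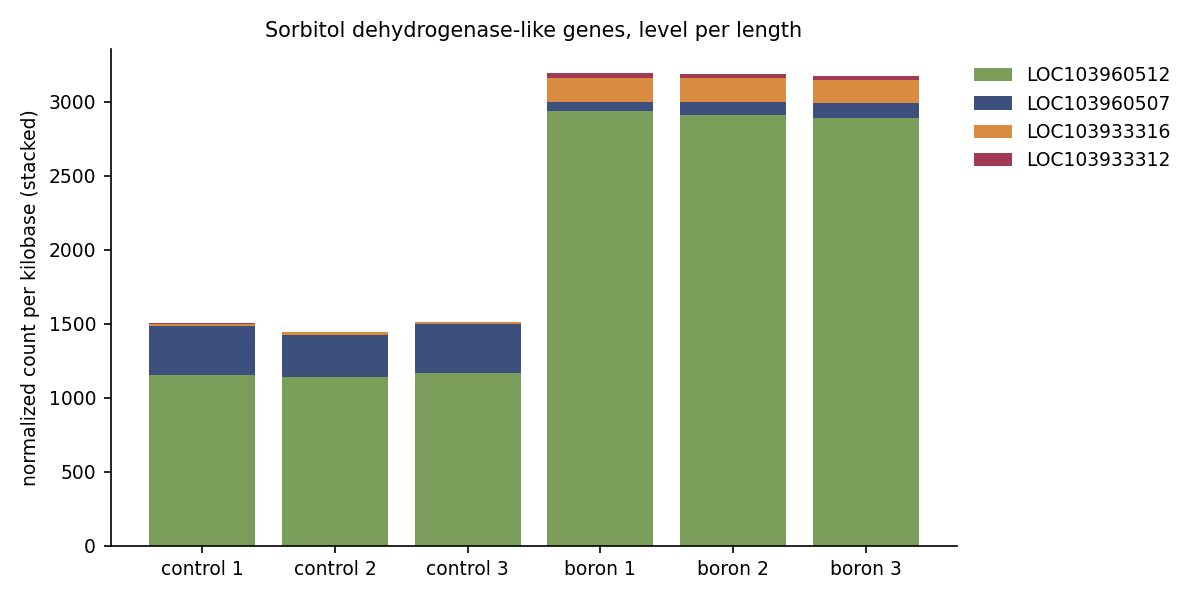
Level of the 4 listed sorbitol dehydrogenase-like genes in each library, as stacked bars of normalized counts per kilobase of gene length (vertical axis from 0). The bars total 1444 to 1509 in control and 3174 to 3193 in boron libraries, and LOC103960512 is the largest segment in each.

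Libraries of a group lay close together for both members. The variance over the mean within a group was 0.259 in boron and 0.198 in control libraries for LOC103960512, and 0.204 and 0.488 for LOC103933316. If a step of the deposited values is 1 read, counting noise alone gives about 1 on average and a lower median. With 3 libraries, single genes scatter widely around this average, so the members' low values are not unusual. Over the 1686 listed genes with a mean of at least 100 normalized counts, the median was 2.94 in boron and 3.14 in control libraries, which on that reading is more than counting noise. LOC103960507 varied more, with 6.30 and 3.01. Of the 3 boron libraries, library 1 had the lowest value of LOC103960507 and the highest value of both members.

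In the rest of the sorbitol pathway, the listed gene for NADP-dependent D-sorbitol-6-phosphate dehydrogenase (LOC103966946, scaffold NW_008988365.1, 361456 to 365304), an aldo-keto reductase of sorbitol synthesis, was lower in boron fruit. It had 57.2, 50.5 and 47.1 normalized counts in boron libraries 1 to 3. In control libraries 1 to 3 it had 127, 154 and 185, all above the boron values. It fell 3.01-fold, its log2 fold change being -1.56 ± 0.20 (limma, adjusted p = 3.31e-05), and it passed as lower under TMM too (log2 fold change -2.98). The sorbitol metabolism list thus held 5 genes, 3 higher and 2 lower, with a median log2 fold change of 1.34 against 1.62 over all listed genes. LOC103966946 was named after its values were seen.

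Of 24 listed transporters for sugars and polyols, 19 rose, 4 fell and 1 did not pass, against 12 and 4 under TMM. Of all 4291 listed genes, 73.0% passed as higher with the authors' size factors, and under TMM 1433 passed as higher and 1242 as lower. The transporters had a median log2 fold change of 2.42 against 1.62 over all listed genes. It was 2.33 with the 3 genes that are at 0 in every control library set at a bound of 3 counts over the group. Polyol transporters, whose substrates include sorbitol, made up 10 of the 24, and 9 of these rose (8 under TMM). The exception was also the most abundant of them: the polyol transporter 5-like gene LOC103960707 fell from 512 ± 55.4 to 205 ± 6.85 normalized counts. LOC103941020, a sugar transporter of the SWEET family described as N3-like, fell from 6843 ± 328 to 165 ± 10.4. A sugar transporter ERD6-like 16 gene (LOC103943592), of a family of vacuolar sugar carriers, rose from 216 ± 22.5 to 609 ± 48.4, a call lost under TMM (adjusted p = 0.686).

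Genes that act on fructose and hexose phosphates were mostly lower. Of 10 listed genes from fructokinase to aldolase, 3 rose and 7 fell (the same counts under TMM). Of all 4291 listed genes, 26.2% fell with the authors' size factors and 1242 genes fell under TMM. The median log2 fold change of the 10 genes was -1.31 against 1.62 over all listed genes. The most abundant were cytosolic enzymes. Phosphoglucomutase (LOC103943049), which interconverts glucose phosphates, fell from 13998 ± 173 to 5404 ± 95.3 normalized counts. Cytoplasmic fructose-bisphosphate aldolase 1 (LOC103944293), which splits the hexose bisphosphate, fell from 14602 ± 1467 to 4400 ± 837. Glucose-6-phosphate isomerase (LOC103955432), which converts fructose phosphate and glucose phosphate into each other, fell from 10208 ± 308 to 4304 ± 63.6. Chloroplastic aldolase genes went the other way. LOC103966935 rose from 5.25 ± 2.29 to 301 ± 5.13 and LOC103937074 from 4.89 ± 2.35 to 33.5 ± 3.75, both named after their values were seen. The fructokinases went apart, since fructokinase-7 rose, as given above, and probable fructokinase-5 (LOC103959887, named after its values were seen) had 0.981 ± 1.70 normalized counts in boron and 27.0 ± 2.99 in control fruit (limma log2 fold change -4.14).

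Of 16 genes for sucrose cleavage and synthesis, 7 rose and 9 fell (3 and 9 under TMM). Over all 4291 listed genes, 73.0% passed as higher and 26.2% as lower, and 1433 and 1242 genes did so under TMM. The median log2 fold change was -1.34 for these 16 genes against 1.62 over all listed genes. A sucrose synthase-like gene (LOC103935319), for an enzyme that splits sucrose reversibly, fell from 459 ± 9.25 to 121 ± 17.1 normalized counts, and a chloroplastic neutral/alkaline invertase 3-like gene (LOC103947010), for a hydrolase of sucrose, fell from 977 ± 18.7 to 397 ± 32.4. A sucrose-phosphatase 2-like gene (LOC103952711), for the last step of sucrose synthesis, rose from 117 ± 28.8 to 582 ± 21.1. The description patterns also took in an inhibitor of invertase or pectin methylesterase (LOC103933058, named after its values were seen), which is not an enzyme of sucrose metabolism.

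**Figure D5:**
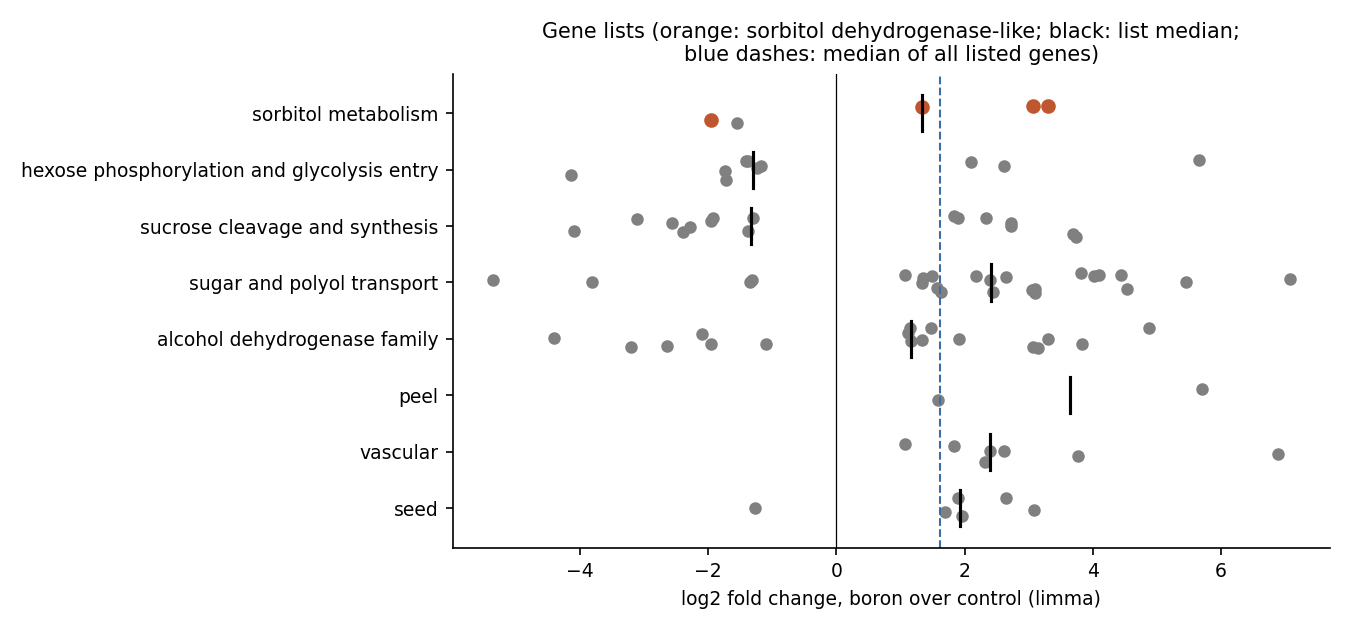
Log2 fold change of boron over control (horizontal axis) for each listed gene of 8 lists (rows), with the list median as a black bar and the median of all listed genes, 1.62, as a dashed line. The sorbitol dehydrogenase-like genes, in orange in the top row, stand at -1.95, 1.34, 3.07 and 3.30.

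Among relatives of the enzyme, 17 listed genes carried ADH_N or ADH_zinc_N in the family column, the sorbitol dehydrogenase-like genes included, and 11 rose and 6 fell (6 and 6 under TMM; median log2 fold change 1.47 with the authors' size factors). Over all 4291 listed genes 73.0% passed as higher and the median was 1.62, and under TMM 1433 passed as higher and 1242 as lower. A list of the family by description also held 17 genes, 14 of them in common, with 11 higher and 6 lower. Its 3 others were NAD(P)H oxidoreductases without these domains. The most abundant of the 3 was a mitochondrial alternative oxidoreductase A1-like gene (LOC103945063), which rose from 428 ± 38.1 to 955 ± 85.1 and was lower under TMM (log2 fold change -0.28, adjusted p = 0.0317). LOC103960512 was the most abundant gene of the description list by mean normalized count. The alcohol dehydrogenase-like gene LOC103966279, of the enzymes that interconvert acetaldehyde and ethanol, came next and fell from 2639 ± 112 to 285 ± 16.5.

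The genes with profiles most like those of the members were sought among 1891 listed genes with a mean of at least 50 normalized counts and an informative description, by Euclidean distance of log2(normalized count + 1) centred over the 6 libraries. Nearest to LOC103933316 were ethylene-responsive transcription factor ERF017 (LOC103929680, distance 0.184), the kinase WNK4 (LOC103945882, 0.217), high affinity nitrate transporter 2.7 (LOC103926951, 0.247) and protein E6 (LOC103944168, 0.250). Nearest to LOC103960512 were ferredoxin-nitrite reductase (LOC103937987, 0.0934), receptor-like kinase HSL1 (LOC103952537, 0.114), malonyl CoA-acyl carrier protein transacylase (LOC103935263, 0.117) and a phospho-2-dehydro-3-deoxyheptonate aldolase 1-like gene (LOC103962023, 0.128). The members were 2.42 apart, and LOC103960512 stood at place 806 in order of distance from LOC103933316, with the neighbour LOC103933312 at place 64. With libraries in only 2 groups, such a distance mostly compares the size of the change.

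Most listed markers of other tissues were higher in boron libraries under the authors' scaling, as were 73.0% of all listed genes, and fewer passed under TMM. Of all 4291 listed genes, 1433 passed as higher and 1242 as lower under TMM. All 7 vascular markers passed as higher (3 under TMM), with a summed level of 618 to 700 normalized counts against 149 to 175 in control. Both listed peel markers passed as higher (1 under TMM), with sums of 137 to 142 against 15.0 to 21.9. Of 6 seed markers 5 were higher and 1 lower (3 and 1 under TMM), with sums of 1905 to 2044 against 2309 to 2590. The most abundant of each list were a PHLOEM PROTEIN 2-like gene (LOC103946488), 300 ± 45.7 against 141 ± 11.1 (log2 fold change -0.36 under TMM, adjusted p = 0.0632), an acyltransferase WSD1-like gene (LOC103945453), 83.5 ± 6.12 against 1.08 ± 1.87, and a legumin B-like gene (LOC103946296), 931 ± 104 against 2235 ± 167. No listed marker was at 0 in a whole group. Their part in the values of the sorbitol dehydrogenase-like genes was not tested. The tissue label itself could not be checked, since only genes that differed have library values.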

How the data were processed

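RNA of the pulp came from a Trizol extraction and was sequenced from NEBNext Ultra libraries, per the labels' protocols. The submitters' processing notes name HISAT2, with no version, and nothing else. How reads were counted, whether strand was used, which build served and which test the authors ran is not given in the sources used here. The signal that the authors deposited for each library is a normalized count, a gene count over the library's size factor. In every library the 4291 values proved to be whole multiples of a single step (tolerance 0.001), and these steps gave size factors of 0.926 to 1.11 and 1914312 to 2056668 steps (reads, if a step is 1 read) in the listed genes. Depth outside these genes is unknown. The deposited log2 fold changes, p-values and adjusted p-values are the authors', per the file headers, as is the gene length in bases. The highest adjusted p in the table was 0.0499, and log2 fold changes had a size of 1.00 or more. The second deposited table holds a signed score per gene, the authors' signal-to-noise measure, for 42194 genes.

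From these, limma 3.58.1 in R 4.3.3, with its trend and robust settings, was run on log2(normalized count + 1) over all listed genes, two-sided, with a threshold of 0.05, and tested on simulated data. Count tests had been planned as alternatives and were not run, because the step of control library 1 lies too near 1 to meet the rule set for treating steps as reads. Ratios of 2 genes were compared by exact permutation tests (SciPy 1.17.1). TMM factors, median-of-ratios factors and the quantile normalization were computed from the listed genes alone.

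The members and the 8 gene lists, which are patterns on descriptions, were chosen with earlier results of these data known. The rule for named genes took both members, the 4 genes nearest to each in profile, up to 3 passing genes with the highest mean of each pathway or family list and 1 of each marker list. Other genes are said to be picked after their values were seen. No sequence of these genes was used here.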

Additional observations from a re-analysis of the deposited data

How the results depend on the processing

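The log2 fold change of LOC103933316 kept its direction and passed in all 15 alternatives (1.89 to 3.38; limma, adjusted p 2.21e-09 to 2.63e-05), and leaving out a library gave 3.18 to 3.38. That of LOC103960512 did so in 13 of 15 (limma, adjusted p 5.98e-11 to 0.000153 in these 13) and without a library was 1.33 to 1.34. It reversed without passing at -0.10 with TMM (limma, adjusted p = 0.130) and -0.057 with median-of-ratios size factors (adjusted p = 0.401), both built on genes selected for differing. Quantile normalization, under which it passed at 1.55, was built on the same genes. The difference between the members, 1.96, was 0.71 with quantile normalization, 1.76 with a pseudocount of 5, and 1.84 to 2.06 without a library. Genes that passed as higher numbered 3131, and 1433 with TMM, 1486 with median of ratios, 1522 with quantile normalization and 1049 at a mean of at least 100 normalized counts, where fewer genes were tested (635 lower, against 1126). Without a library they were 3095 to 3109 higher and 1111 to 1119 lower. Same-numbered libraries showed no sign of pairing: deviations from group means correlated at -0.10, 0.00446 and -0.11 over 1686 genes. Differently numbered libraries correlated at -0.11 to 0.16. With 3 libraries per group the check cannot exclude pairing. With the replicate block 3127 genes were higher and 1131 lower, and both members passed with the same log2 fold changes, 3.30 and 1.34. The 2 count tests planned as alternatives were not run. Counts near 20 per control library limit the fold change of LOC103933316, and those under 10 that of LOC103933312.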
